A study of Mus musculus with 12 samples.

Results

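Cathepsins are proteases that mostly work inside lysosomes. The group described here is 9 cathepsin genes, listed by symbol as *Ctsb*, *Ctsc*, *Ctsd*, *Ctse*, *Ctsh*, *Ctsk*, *Ctsl*, *Ctss* and *Ctsz*, and matched to their Ensembl rows among the 54532 genes of a whole-lung RNA-seq count table. All 9 passed the filter on low counts and were among the 17473 genes tested. The rule is a list of symbols and uses no measured value.

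Lungs came from mice of 2 genotypes, each given CRE or PBS, with 3 libraries in each of 4 groups. CKO_CRE and CKO_PBS mice were Cc10-Cre;Rhoafl/fl, and WT_CRE and WT_PBS mice were Cc10-Cre with no floxed allele named. All 4 groups therefore carried the Cc10-Cre transgene. The Cc10 promoter is active in club cells, secretory cells of the airway lining, so the deletion of *Rhoa*, a small GTPase gene, is aimed at those cells and not at macrophages, and whole lung dilutes it. CRE is a treatment that the labels do not spell out, and it is distinct from Cre recombinase. The sources used here do not give age, dose, duration or strain. Nothing in the labels says that the libraries of a group came from separate animals, so the p-values measure the spread between these libraries, part of which may be technical. Y-linked counts show that CKO_CRE, WT_CRE and CKO_PBS each held libraries of both sexes, and so of more than 1 animal.

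Library totals ran from 16250674 to 21559210 counts. The lung label fits abundant type 2 alveolar markers, whose 7 genes summed to between 18970 and 28749 CPM (counts scaled to library size) in every library. Replicate 2 of CKO_CRE stood far apart from replicates 1 and 3: the chi-square per degree of freedom between their counts was 81.5 and 52.5. It was 24.4 between replicates 1 and 3, and 4.48 to 26.7 between libraries of any other group. By Y-linked counts, CKO_CRE and WT_CRE held 2 female libraries each, CKO_PBS held 1 and WT_PBS held none, so sex is unbalanced along the CRE comparisons. Because replicate 2 of CKO_CRE stood apart, tests that rest on the CKO_CRE libraries were repeated without it.

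Most cathepsins are cysteine proteases made as inactive precursors, sorted to the endolysosome and activated there by low pH and by other proteases. *Ctsd* and *Ctse* encode aspartic proteases instead. In lung, cathepsins are best known from macrophages, where they digest engulfed proteins, trim the class II invariant chain for antigen presentation and, once secreted, can cut elastin and collagen.

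On GRCm38 (mm10), by GENCODE M21, *Ctss* (ENSMUSG00000038642) spans 95526786 to 95556403 and *Ctsk* (ENSMUSG00000028111) 95499256 to 95509362 on chromosome 3. *Ctsl* (ENSMUSG00000021477) spans 64359337 to 64370890 on chromosome 13, *Ctsb* (ENSMUSG00000021939) 63122462 to 63145923 on chromosome 14 and *Ctsz* (ENSMUSG00000016256) 174427493 to 174439039 on chromosome 2. *Ctsc* (ENSMUSG00000030560) spans 88278085 to 88310888 and *Ctsd* (ENSMUSG00000007891) 142375911 to 142388038 on chromosome 7. *Ctsh* (ENSMUSG00000032359) spans 90054152 to 90076089 on chromosome 9 and *Ctse* (ENSMUSG00000004552) 131638306 to 131675505 on chromosome 1.

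*Ctsk* and *Ctss* are neighbours on chromosome 3, on the same strand and 17.4 kilobases apart, and their 250 bases before the start site are shown because these genes had the largest CRE responses. *Ctsd* is shown beside them as a lower responder with a different motif. The sequences are from RefSeq on GRCm38.p6, 5′ to 3′ on the gene's own strand, at chr3:95526536-95526785 (plus strand) for *Ctss*, chr3:95498960-95499209 (plus strand) for *Ctsk* and chr7:142387828-142388077 (minus strand) for *Ctsd*. Capitals mark matches to GAGGAA, a core bound by ETS factors, or to its reverse complement in the first and second, and to CACGTG, an E-box, in the third.
Ctss: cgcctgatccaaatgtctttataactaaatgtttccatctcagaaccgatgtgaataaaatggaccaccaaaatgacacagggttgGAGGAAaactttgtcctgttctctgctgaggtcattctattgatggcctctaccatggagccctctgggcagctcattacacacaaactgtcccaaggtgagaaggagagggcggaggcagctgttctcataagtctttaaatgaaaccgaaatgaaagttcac
Ctsk: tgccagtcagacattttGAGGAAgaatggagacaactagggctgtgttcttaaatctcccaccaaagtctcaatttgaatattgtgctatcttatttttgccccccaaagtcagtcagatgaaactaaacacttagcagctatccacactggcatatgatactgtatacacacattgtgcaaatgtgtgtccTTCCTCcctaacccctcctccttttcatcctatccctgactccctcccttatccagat
Ctsd: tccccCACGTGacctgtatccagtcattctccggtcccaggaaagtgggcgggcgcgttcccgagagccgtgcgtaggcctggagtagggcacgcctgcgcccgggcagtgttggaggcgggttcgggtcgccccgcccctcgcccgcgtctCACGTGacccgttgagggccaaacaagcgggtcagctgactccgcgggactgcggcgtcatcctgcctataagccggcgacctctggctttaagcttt

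Promoter entries were found for 6 of the 9 genes, all but *Ctsb*, *Ctse* and *Ctsh*. On both strands, GAGGAA was found in 3 of the 6 (*Ctsc*, *Ctsk* and *Ctss*), and in 23.1% of all 27025 promoters of that length. CACGTG, the centre of the element bound by the lysosomal regulator TFEB, was found in *Ctsd* and *Ctsl*, and in 6.05% of all promoters. *Ctsd* carried it at 245 to 240 and at 98 to 93 bases before the start. TGANTCA, an AP-1 site, and TTC followed after any 4 bases by GAA, a STAT site, were in none of the 6 windows, and in 6.87% and 5.86% of all promoters. The *Ctsd* window lies partly inside the GENCODE gene, whose outermost start is farther upstream than the RefSeq start, and the *Ctsl* window lies wholly inside its gene. The *Ctsk* window ends short of the GENCODE start, and the RefSeq bases after its start were not found in its GENCODE transcripts. No matches of different motifs overlapped in the sequences printed. These are letter matches, not measured binding. The *Ctsz* window held none of the motifs searched, and *Ctsz* rose 5.04-fold with CRE in WT lungs. *Ctsc*, with GAGGAA, rose 2.56-fold there and *Ctsl*, with CACGTG, 3.79-fold. A tie between motif and response was not tested.

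Levels between genes were compared as CPM per kilobase of the principal transcript. In WT_CRE lungs *Ctss* was highest at 1278 ± 47.0 CPM per kilobase (SD, n = 3), followed by *Ctsz* at 562 ± 55.9, *Ctsb* at 484 ± 21.5 and *Ctsl* at 472 ± 47.7, and the ranges of these last 3 genes overlapped in turn. In WT_PBS lungs the order was flatter: *Ctsh* at 186 ± 13.4 and *Ctss* at 183 ± 14.8 CPM per kilobase overlapped at the top, and *Ctsc* at 143 ± 5.45 and *Ctsd* at 139 ± 7.64 overlapped next. *Ctsk* was last but for *Ctse* in all 4 groups. *Ctse* reached 2.13 ± 1.04 CPM per kilobase in CKO_CRE, 2.32 ± 0.253 in WT_CRE, 1.46 ± 0.409 in CKO_PBS and 1.02 ± 0.332 in WT_PBS. With the union of all annotated exons as length, a choice made after seeing the data, *Ctss* was first in all 4 groups and *Ctse* last, but *Ctsh* was at rank 5 in WT_PBS, against 1, and *Ctsk* at rank 5 in WT_CRE, against 8.

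**Figure D1:**
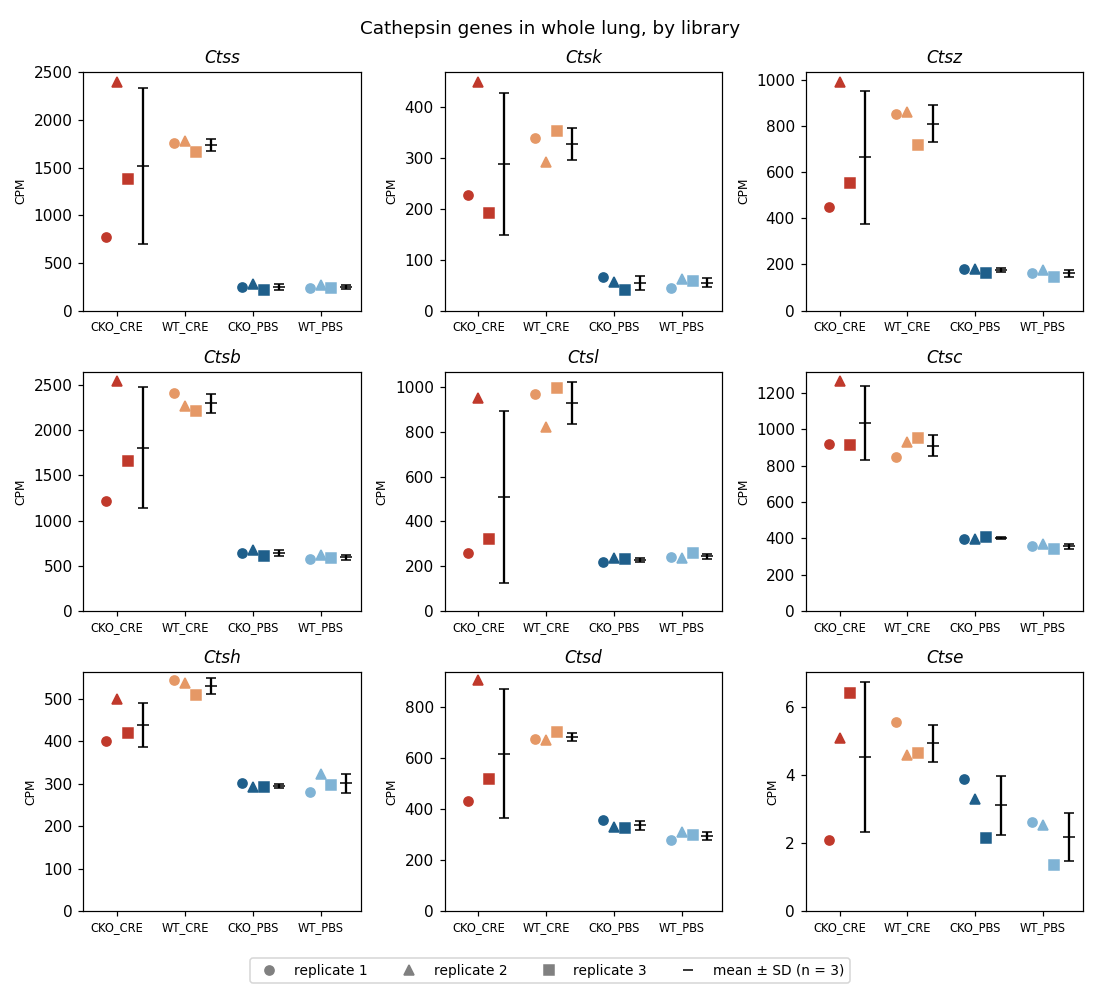
CPM of each cathepsin gene on linear axes from 0, with 1 point per library, its shape giving the replicate number, and bars for the group mean ± SD (n = 3). The CKO_CRE points are the most spread, with replicate 2 on top for 8 of the 9 genes, and all WT_CRE points lie above all WT_PBS points.

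The first question was how CRE changed these genes in mice with intact *Rhoa*. All 9 cathepsin genes were higher in WT_CRE than in WT_PBS lungs, with no overlap between the libraries (edgeR quasi-likelihood test, adjusted p below 0.05). Of all tested genes, 28.6% were called higher in this comparison and 28.4% lower, and 34.4% were higher with no overlap. The median log2 fold change was 1.92 over the 9 genes and 0.01 over all tested genes. Whole-lung RNA cannot tell more cells of a type from more RNA per cell.

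The largest response was that of *Ctss*, which encodes a cysteine protease active at neutral pH that cleaves the invariant chain in antigen-presenting cells. It had 1754, 1781 and 1660 CPM in the WT_CRE libraries, against 239, 272 and 235 CPM in the WT_PBS libraries. The rise was 6.97-fold (log2 2.80 ± 0.31 SE, adjusted p = 3.72e-05). *Ctsk*, best known as the collagen-cutting protease of osteoclasts, had 338, 292 and 353 CPM in WT_CRE lungs, against 45.3, 62.4 and 57.6 CPM in WT_PBS lungs. It rose 5.94-fold (log2 2.57 ± 0.29, adjusted p = 4.53e-05), and every CRE library was far above every PBS library.

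*Ctsz*, *Ctsb* and *Ctsl* encode the broad endolysosomal proteases: *Ctsz* a carboxypeptidase, *Ctsb* an enzyme that cuts both inside and at the end of proteins, and *Ctsl* an endopeptidase. *Ctsz* was 852, 862 and 718 CPM in WT_CRE against 161, 175 and 147 CPM in WT_PBS, a 5.04-fold rise (log2 2.33 ± 0.24, adjusted p = 2.25e-05). *Ctsb* was 2409, 2274 and 2209 CPM in WT_CRE against 571, 624 and 587 CPM in WT_PBS (3.87-fold, adjusted p = 2.94e-05). *Ctsl* was 969, 822 and 997 CPM in WT_CRE against 242, 236 and 258 CPM in WT_PBS (3.79-fold, log2 1.92 ± 0.37, adjusted p = 0.00106). In each of the 3 genes the libraries of a group lay close together and the groups were well apart.

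*Ctsc* encodes dipeptidyl peptidase 1, which activates the serine proteases of neutrophils, mast cells and cytotoxic lymphocytes. It averaged 910 ± 56.8 CPM in WT_CRE and 356 ± 13.6 CPM in WT_PBS (SD, n = 3 each), a rise of 2.56-fold (adjusted p = 1.55e-05). *Ctsh*, an aminopeptidase that also takes part in surfactant protein maturation in type 2 cells, had the smallest rise of the 9 in WT lungs. It averaged 530 ± 19.2 CPM in WT_CRE and 301 ± 21.6 CPM in WT_PBS (1.76-fold, log2 0.82 ± 0.10, adjusted p = 6.41e-05).

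Both aspartic protease genes rose as well. *Ctsd*, a major lysosomal endopeptidase, averaged 683 ± 16.1 CPM in WT_CRE and 296 ± 16.3 CPM in WT_PBS (2.31-fold, log2 1.21 ± 0.21, adjusted p = 0.000521). *Ctse*, an endosomal aspartic protease, had 5.55, 4.59 and 4.65 CPM in WT_CRE lungs, against 2.63, 2.52 and 1.36 CPM in WT_PBS lungs (2.26-fold, log2 1.17 ± 0.38, adjusted p = 0.0199). The *Ctse* call was lost with sex as a covariate (adjusted p = 0.086), without WT_PBS replicate 3 (0.0803) and without WT_CRE replicate 1 (0.0599). Its raw counts were between 23 and 109, so it is the least precise of the 9.

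In CKO lungs 8 of the 9 genes rose with CRE, all but *Ctse*, and these 8 had no overlap between CKO_CRE and CKO_PBS libraries. Of all tested genes, 20.6% were called higher and 24.3% were higher with no overlap. *Ctss* was 771, 2394 and 1380 CPM in CKO_CRE against 244, 284 and 220 CPM in CKO_PBS, a 6.08-fold rise (log2 2.60 ± 0.31, adjusted p = 0.000174). *Ctsk* was 226, 448 and 191 CPM in CKO_CRE against 66.6, 55.2 and 39.9 CPM in CKO_PBS (5.35-fold, adjusted p = 0.000198). Without replicate 2 the rises were 4.32-fold for *Ctss* and 3.88-fold for *Ctsk*. Both genes were above every PBS library in every CRE library, although the CRE libraries differed widely among themselves.

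*Ctsz* rose 3.78-fold in CKO lungs (665 ± 288 CPM in CKO_CRE and 176 ± 9.2 in CKO_PBS), *Ctsb* 2.83-fold (1808 ± 674 CPM in CKO_CRE and 639 ± 35.5 in CKO_PBS) and *Ctsc* 2.59-fold (1035 ± 203 CPM in CKO_CRE and 400 ± 6.09 in CKO_PBS). Their adjusted p-values were 0.000202, 0.000345 and 4.31e-05. Without replicate 2 these rises were 2.85-fold for *Ctsz*, 2.26-fold for *Ctsb* and 2.3-fold for *Ctsc*, all still called. *Ctsl* had 257, 954 and 323 CPM in CKO_CRE against 218, 237 and 230 CPM in CKO_PBS, a rise of 2.24-fold (log2 1.16 ± 0.36, adjusted p = 0.0248). Replicates 1 and 3 of CKO_CRE were only slightly above the PBS libraries and replicate 2 was far above them. Without replicate 2 the *Ctsl* rise was log2 0.35 ± 0.11 (adjusted p = 0.0324).

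The *Ctsl* call was thus kept without replicate 2, with a smaller rise. In other fits its CRE minus PBS difference in CKO lungs stayed between log2 0.969 and 1.189 but was not called: without any 1 of the 3 CKO_PBS libraries (adjusted p = 0.0704, 0.0575 and 0.069 for replicates 1, 2 and 3), with sex as a covariate (0.0736) and when only these 2 groups were fitted (0.102). That last fit called 6 of the 9 higher, against 12.9% of tested genes, and the fit without replicate 2 called 8, against 15.7% higher and 14.2% lower. *Ctsd* rose 1.83-fold (618 ± 252 CPM in CKO_CRE and 337 ± 16.7 CPM in CKO_PBS, adjusted p = 0.00669). Its log2 rise was 0.87 ± 0.21, and 0.50 ± 0.09 without replicate 2 (adjusted p = 0.0016). *Ctsh* rose 1.49-fold, with 439 ± 52.4 CPM in CKO_CRE and 295 ± 4.93 CPM in CKO_PBS (adjusted p = 0.00134), and 1.39-fold without replicate 2. *Ctse* was 2.1, 5.08 and 6.41 CPM in CKO_CRE against 3.88, 3.28 and 2.16 CPM in CKO_PBS, and its log2 difference of 0.55 had a 95% interval of -0.27 to 1.36 (adjusted p = 0.264). Without CKO_CRE replicate 1, whose *Ctse* value was the lowest, it was called (adjusted p = 0.0334).

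**Figure D2:**
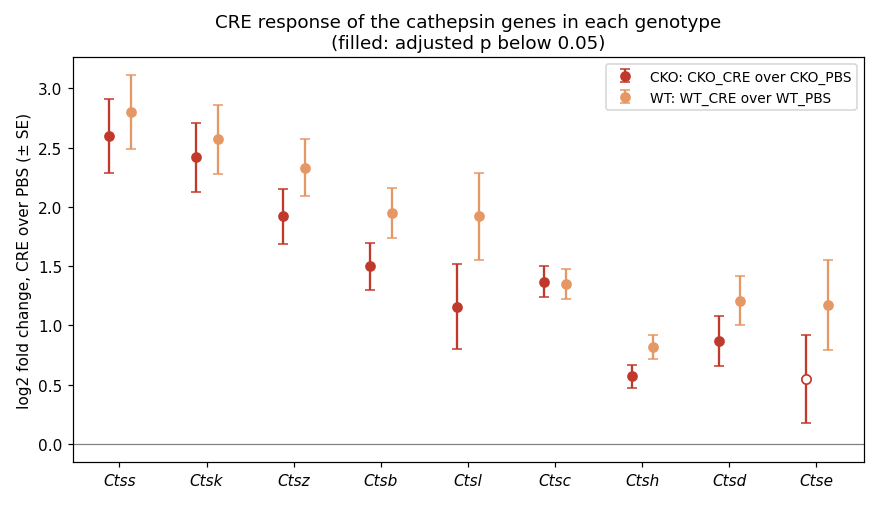
Log2 fold change of CRE over PBS ± SE for each gene, in CKO and in WT lungs, with filled points for an adjusted p below 0.05. The estimates run from 0.55 for *Ctse* in CKO, the only open point, to 2.80 for *Ctss* in WT.

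The make-up of the family was described as each gene's share of the summed CPM per kilobase. *Ctss* held 25.4%, 35.2% and 34.9% in CKO_CRE, 31.5%, 32.6% and 31.0% in WT_CRE, 16.2%, 18.6% and 15.5% in CKO_PBS and 17.5%, 18.1% and 16.8% in WT_PBS. Its share was thus higher in every CRE library than in every PBS library. *Ctsh* went the other way in WT, with 8.14% ± 0.165 in WT_CRE and 17.7% ± 0.431 in WT_PBS. *Ctsl* held 5.82%, 9.64% and 5.62% in CKO_CRE and 10.4% to 12.8% over the 3 WT_CRE libraries, with no overlap. *Ctsc*, with 10.1% to 16.5% in CKO_CRE and 8.26% to 9.66% in WT_CRE, and *Ctsd*, with 8.35% to 9.08% in CKO_CRE and 7.74% to 8.34% in WT_CRE, did not overlap either, in the other direction. The exact two-sided permutation p was 0.1 for each of the 3 genes, the smallest that 3 against 3 can give, so no share could pass 0.05.

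**Figure D3:**
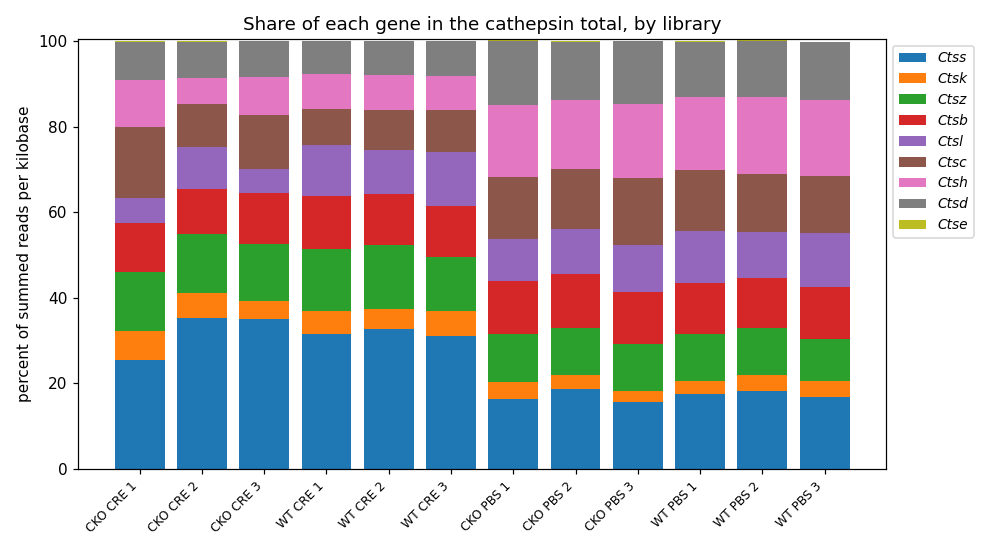
Stacked shares, in percent, of the summed CPM per kilobase of the 9 genes in each of the 12 libraries. *Ctss* takes 25.4% to 35.2% in the CRE libraries and 15.5% to 18.6% in the PBS libraries.

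Together the 9 genes took 0.686% ± 0.263 of counts in CKO_CRE, 0.807% ± 0.0229 in WT_CRE, 0.24% ± 0.0109 in CKO_PBS and 0.227% ± 0.00994 in WT_PBS (SD, n = 3 each). The WT_CRE libraries summed to 8103 to 8394 CPM, whereas the CKO_CRE libraries summed to 4681, 10009 and 5963 CPM.

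The second question was whether the genotype changed these levels under CRE. None of the 9 genes was called between CKO_CRE and WT_CRE by edgeR, where 0.549% of tested genes were called higher and 0.366% lower. At an unadjusted p below 0.05 there were 2, *Ctsl* and *Ctsh*. The share of all tested genes at that level was not computed, so this count has no reference. DESeq2 called 0 and limma-voom with library weights called 7 lower, against 20.8% of all genes called lower by that method.

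*Ctsl* had 257, 954 and 323 CPM in CKO_CRE against 969, 822 and 997 CPM in WT_CRE, a log2 difference of -0.86 (95% interval -1.65 to -0.07, adjusted p = 0.236). Replicates 1 and 3 were below all WT_CRE libraries and replicate 2 was among them. *Ctsh* had 400, 499 and 419 CPM in CKO_CRE against 545, 538 and 509 CPM in WT_CRE, a log2 difference of -0.27 (-0.49 to -0.06, adjusted p = 0.19). It was the only gene of the 9 without overlap, and 7.69% of tested genes were lower with no overlap. *Ctsh* lies on chromosome 9, as does *Rhoa*. Under PBS the CKO minus WT difference of *Ctsh* was log2 -0.03 (95% interval -0.24 to 0.19), and the libraries overlapped. A part of the chromosome position in the *Ctsh* values was not tested.

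The other 7 differences were between -0.35 for *Ctsb* (95% interval -0.78 to 0.09, adjusted p = 0.361) and 0.18 for *Ctsc* (-0.09 to 0.46, adjusted p = 0.428). *Ctss* was at -0.19 with an interval of -0.82 to 0.44, and *Ctsk* at -0.18 with -0.78 to 0.42. The intervals of *Ctss*, *Ctsk* and *Ctse* (-0.92 to 0.68) leave room for sizeable differences in either direction. That of *Ctsb* leaves room mainly for a lower level in CKO_CRE, and that of *Ctsc* mainly for a higher one.

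Within CKO_CRE the libraries had a shared order. Replicate 2 was the highest for 8 of the 9 genes, against 40.3% of all tested genes, and replicate 1 was the lowest for 7, against 34.7%. The ratio of replicate 2 to replicate 1 was 3.71 for *Ctsl*, 3.1 for *Ctss*, 2.2 for *Ctsz*, 2.08 for *Ctsb*, 1.38 for *Ctsc* and 1.25 for *Ctsh*, and its median over all tested genes was 0.995. Replicate 2 was above every WT_CRE library for 6 of the 9, against 27.1% of tested genes, while replicates 1 and 3 were both below every WT_CRE library for 7, as for 26.4% of tested genes. The coefficient of variation of *Ctsl* was 75.3% in CKO_CRE and 10.1% in WT_CRE.

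**Figure D4:**
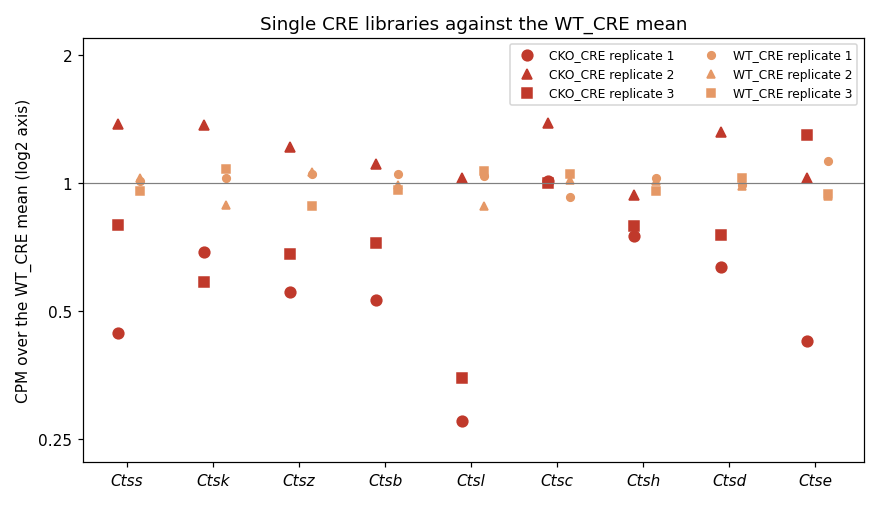
Level of each gene in the 3 CKO_CRE libraries and the 3 WT_CRE libraries as a multiple of the WT_CRE mean, on a log2 axis. CKO_CRE replicate 2 is at 1.03 for *Ctsl* and 1.38 for *Ctss*, while replicates 1 and 3 are at 0.276 and 0.347 for *Ctsl*.

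Every library was left out in turn, and cathepsin genes were called lower in CKO_CRE than in WT_CRE only without CKO_CRE replicate 2. That fit, with 2 CKO_CRE libraries, called 7 of the 9 lower, against 12.7% of tested genes lower and 15.8% higher. Replicate 2 was the highest CKO_CRE library for 8 of the 9 genes, so leaving it out lowers their CKO_CRE means by construction. The calls of that fit are thus no independent support for a genotype difference. *Ctsl* differed most, at log2 -1.68 ± 0.12 (adjusted p = 9.5e-06). *Ctsz* was at -0.69 ± 0.12 (adjusted p = 0.00158), *Ctss* at -0.68 ± 0.19 (0.0205) and *Ctsb* at -0.67 ± 0.12 (0.00198). *Ctsk*, *Ctsd* and *Ctsh* were also lower, while *Ctsc* was at 0.01 ± 0.08 (adjusted p = 0.909) and *Ctse* at -0.20 ± 0.41 (0.749).

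**Figure D5:**
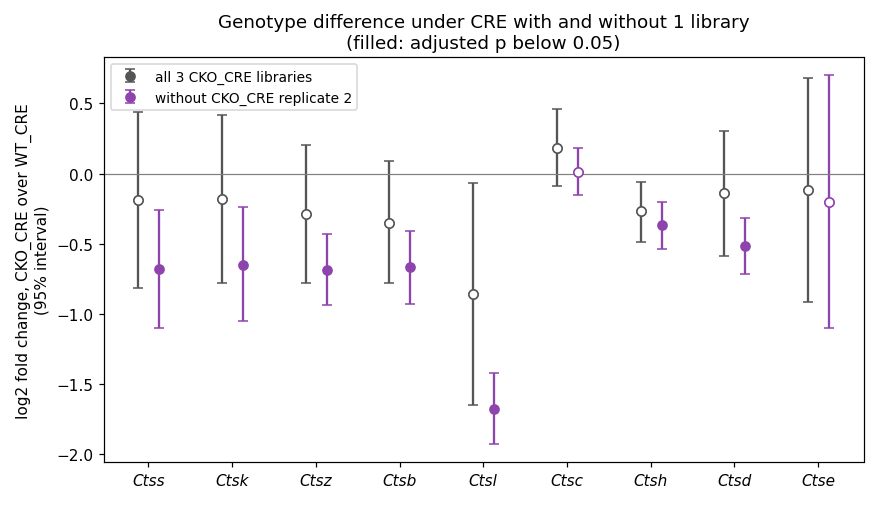
Log2 difference of CKO_CRE minus WT_CRE with its 95% interval for each gene, with all libraries and without CKO_CRE replicate 2, with filled points for an adjusted p below 0.05. For *Ctsl* the estimate is -0.86 with all libraries and -1.68 without replicate 2, and for *Ctsc* it is 0.18 and 0.01.

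Of 17 cell type marker lists, 7 had their highest CKO_CRE sum in replicate 2 and 8 their lowest. The 8 interstitial macrophage markers summed to 1538, 3670 and 2193 CPM in CKO_CRE, 2859, 2999 and 2838 CPM in WT_CRE, 642 to 797 CPM in CKO_PBS and 676 to 816 CPM in WT_PBS. *Apoe* was the largest part of this sum, at 787, 1912 and 1088 CPM in CKO_CRE. Its means were 1262 CPM in CKO_CRE, 1271 in WT_CRE, 527 in CKO_PBS and 536 in WT_PBS. The 7 osteoclast-like markers summed to 197, 483 and 223 CPM in CKO_CRE and 397, 408 and 416 CPM in WT_CRE, 98.2 to 125 CPM in CKO_PBS and 86.9 to 102 CPM in WT_PBS. Both sums were highest in CKO_CRE replicate 2, as were 8 of the 9 cathepsins. No marker of either list was at 0 in all libraries. However, *Calcr* and *Oscar* of the osteoclast-like list reached at most 0.693 and 0.3 CPM in any library and were not tested. Most of the osteoclast-like sum was *Acp5* and *Atp6v0d2*, at means of 149 and 154 CPM in WT_CRE, which also stand in the lysosomal lists below. Among the other lists, monocyte markers summed to 299, 488 and 406 CPM over the CKO_CRE libraries and neutrophil markers to 175, 305 and 94.7 CPM, and the eosinophil and the T and NK cell sums were also highest in replicate 2. Club cell markers, at 940, 439 and 690 CPM, and endothelial markers, at 3463, 2074 and 2991 CPM, were lowest there.

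Of these lists, 7 of 8 interstitial macrophage markers and 5 of 5 tested osteoclast-like markers rose in WT with CRE, against 28.6% of all tested genes. With all libraries, 0 of either list were lower in CKO_CRE than in WT_CRE, and 1 interstitial marker was higher. Without CKO_CRE replicate 2, 6 of 8 and 5 of 5 were lower, and 1 interstitial marker was higher. Of all tested genes, 12.7% were lower and 15.8% higher in that fit. The general macrophage sum went otherwise, at 5136 to 6343 CPM in CKO_CRE and 3590 to 4427 CPM in WT_CRE. It was mostly *Lyz2*, a gene that type 2 cells also express. The 8 alveolar macrophage markers summed to 9408, 10179 and 8097 CPM in CKO_CRE and 8679 to 10310 CPM in WT_CRE. Their PBS sums were 1213 to 1461 CPM in CKO_PBS and 1047 to 1288 CPM in WT_PBS. Most of each sum was *Chil3*, with means of 8916 CPM in CKO_CRE, 9474 in WT_CRE, 1041 in CKO_PBS and 865 in WT_PBS. Of the 8 markers, 1 rose and 4 fell in WT with CRE. With all libraries, 2 of the 8 were higher and 0 lower in CKO_CRE than in WT_CRE. Without CKO_CRE replicate 2, 5 were higher and 0 lower. The part of cell numbers in the cathepsin values was not tested.

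The genotypes were also compared without CRE. None of the 9 genes was called between CKO_PBS and WT_PBS (edgeR; 0.0401% of tested genes were called higher and 0.0687% lower), and there were 0 at an unadjusted p below 0.05, 0 by DESeq2 and 0 by limma-voom. The log2 differences were between -0.10 for *Ctsl* (95% interval -0.89 to 0.68) and 0.51 for *Ctse* (-0.33 to 1.35). *Ctsc*, at 398, 395 and 407 CPM in CKO_PBS against 357, 370 and 342 CPM in WT_PBS, did not overlap. Nor did *Ctsd*, at 356, 329 and 326 CPM in CKO_PBS against 278, 310 and 299 CPM in WT_PBS. Of all tested genes, 7.65% were higher with no overlap.

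Whether CKO and WT lungs responded differently to CRE was tested directly, as the response in CKO minus that in WT (the interaction). No cathepsin gene was called (edgeR; 0.0343% of tested genes were called higher and 0.0114% lower), 0 passed an unadjusted p below 0.05, DESeq2 called 0 and limma-voom called 5 lower, against 10.6% of genes. The estimates were between -0.76 for *Ctsl* (95% interval -1.87 to 0.35, adjusted p = 0.595) and 0.02 for *Ctsc* (-0.36 to 0.40, adjusted p = 0.975). Without CKO_CRE replicate 2, 5 were called lower, against 6.11% of tested genes lower and 8.72% higher. These were *Ctsl* at -1.57 ± 0.15 (adjusted p = 0.000303), *Ctsz* at -0.82 (0.0071), *Ctsb* at -0.78 (0.00951), *Ctsd* at -0.71 (0.00468) and *Ctsh* at -0.34 (0.0474). *Ctss* at -0.69 (adjusted p = 0.0909) and *Ctsk* at -0.61 (0.116) did not pass. Here too, leaving out replicate 2 lowers the CKO_CRE means of most of these genes by construction, so the calls are no independent support.

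Genes that work with cathepsins were read from lists chosen with earlier results known. Their counts stand beside the 28.6% higher and 28.4% lower of all tested genes for CRE in WT, and the 20.6% higher and 18.5% lower for CRE in CKO. Of 4 other cathepsin genes tested, 2 rose and 1 fell in WT with CRE (median log2 0.48, against 0.01 over all genes). *Ctsa*, a serine carboxypeptidase that protects other lysosomal enzymes, rose by log2 1.18 ± 0.14, *Ctsw*, a gene of cytotoxic lymphocytes, by 1.51 ± 0.33, and *Ctsf* fell by 0.65. In CKO the same comparison gave 2 higher and 1 lower.

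Of 10 inhibitors tested, 5 rose and 3 fell in WT with CRE, and 3 rose and 3 fell in CKO. The falling count in WT and both counts in CKO are near those of all tested genes. *Cst7*, the cystatin F gene of immune cells, had 10.9, 10.9 and 5.88 CPM in WT_CRE against 1.16, 1.36 and 0.943 CPM in WT_PBS (log2 2.98 ± 0.37, adjusted p = 7.3e-05). *Cstb*, cystatin B of the cytosol, rose by log2 2.17 ± 0.33 (adjusted p = 0.000225), whereas *Cst3*, the secreted cystatin C, was at -0.06 ± 0.09 (adjusted p = 0.591) and -0.01 ± 0.09 (0.968) in CKO. *Cstb* and *Cst3* were chosen after their values were seen. *Fetub* was the only gene of the inhibitor list called between genotypes under CRE. It had 12.3, 16.8 and 11.2 CPM in CKO_CRE against 33.7, 26.1 and 33.2 CPM in WT_CRE (log2 -1.20 ± 0.16, adjusted p = 0.00556). The call was lost when only these 2 groups were fitted (0.0926). Whether the *Fetub* product inhibits cathepsins was not tested.

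Of 30 other lysosomal hydrolases, 19 rose and 3 fell in WT with CRE (median log2 0.67), and 19 rose and 1 fell in CKO (0.44). *Acp5*, the acid phosphatase used as an osteoclast marker, was 140, 156 and 150 CPM in WT_CRE against 20.9, 21.5 and 21.3 CPM in WT_PBS (log2 2.81 ± 0.25). *Lgmn*, the asparaginyl endopeptidase that helps activate cathepsins, rose by 2.03 ± 0.18 in WT and 1.52 ± 0.18 in CKO. *Ids* fell by 0.99 in WT. *Glb1*, beta-galactosidase, was 18.7, 24.7 and 20.6 CPM in CKO_CRE against 56.1, 45.7 and 55.9 CPM in WT_CRE (log2 -1.30 ± 0.18, adjusted p = 0.00556). It also lies on chromosome 9 and overlaps *Tmppe* on the same strand, and its PBS difference was -0.88 ± 0.18 (adjusted p = 0.128).

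Of 23 lysosomal membrane and proton pump genes, 18 rose and 0 fell in WT with CRE, and 15 and 0 in CKO. The macrophage glycoprotein gene *Cd68* rose by log2 2.23 ± 0.25 and the iron transporter gene *Slc11a1* by 1.76 ± 0.26 in WT. Of 13 genes for lysosomal sorting and transcription factors, 9 rose and 2 fell in WT. Among them *Psap*, the saposin precursor, rose by 1.82 ± 0.24 and *Tfec*, a macrophage relative of TFEB, by 2.21 ± 0.15, whereas the sorting receptor *Sort1* fell by 1.34 and *Scarb2* by 0.59.

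All 10 class II presentation genes rose in WT and 8 of 10 in CKO, with medians of log2 1.22 and 1.31. *H2-DMb2*, a chaperone subunit that loads peptide, rose by 1.95 ± 0.28 in WT. Of 7 tested serine proteases activated by *Ctsc*, 0 were called in WT by edgeR and 2 rose in CKO. Of 6 surfactant genes, 2 rose and 3 fell in each genotype, with *Sftpd* at log2 1.32 ± 0.16 and *Sftpb* at -0.76 ± 0.11 in WT. A count of 2 of 6 or of 7 is not far from the share of all tested genes called higher.

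Without CKO_CRE replicate 2, CRE in CKO called 18 hydrolases higher and 1 lower (median log2 0.37), 14 membrane and pump genes higher (0.30), 9 sorting genes higher and 1 lower (0.37) and 8 class II genes higher (1.12). It called 3 inhibitors higher and 3 lower, 1 other cathepsin gene higher and 1 lower, 2 serine proteases higher, and 2 surfactant genes higher and 2 lower.

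Under PBS no gene of these lists was called between genotypes. Under CRE only *Fetub* and *Glb1* were. Without CKO_CRE replicate 2, 13 of 23 membrane and pump genes were lower in CKO_CRE than in WT_CRE and 0 higher, as were 4 and 0 of 10 inhibitors, 3 and 0 of 10 class II genes and 1 and 0 of 4 other cathepsin genes. Of 30 hydrolases 12 were lower and 4 higher, of 13 sorting genes 4 were lower and 2 higher, and of 6 surfactant genes 1 was lower and 3 higher. No serine protease was called by edgeR. Of all tested genes 12.7% were lower and 15.8% higher.

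Likeness of pattern was measured as the root mean square difference of centred log2 CPM over the 12 libraries, among 13412 genes. The genes most like *Ctsb* were *Psap* at 0.0666, *Lgmn* at 0.0674 and *Mmp14* at 0.0763. Those most like *Ctss* were *Slc7a8* at 0.172, *Tgfbi* at 0.177 and *Acp5* at 0.179, and those most like *Ctsz* were *Cks1b* at 0.11, *Cd68* at 0.115 and *Capg* at 0.124. *Ctsk* was closest to *Kifc1* at 0.128, *Kif2c* at 0.163 and *Rrm2* at 0.193.

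*Ctsl* was nearest to *Srgn* at 0.233, *Fkbp11* at 0.241 and *Ptpn2* at 0.268. *Ctsc* was nearest to *Sh3bp2* at 0.107, *Ctsd* to *Ndc1* at 0.103, *Ctsh* to *Necap2* at 0.0608 and *Ctse* to *Klk14* at 0.243. Among the 9 genes themselves, *Ctsb* and *Ctsz* were the closest pair at 0.211 and *Ctsh* and *Ctss* the farthest at 1.01. All of these distances share the same 12 libraries and are a description only.

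Some counts are uncertain because no source used here gives the strand setting of the counting. *Ctsz* overlaps *Nelfcd* and *Ctsb* overlaps *Fdft1* on the opposite strand. *Ctsd* shares 671 identical bases with *Gm49369* on its own strand, and *Ctsl* shares 977 with the antisense gene *Gm47123* and 395 with the pseudogene *Gm49230*.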

How the data were processed

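Whole-lung poly(A) RNA was sequenced in 12 libraries. The values used are read counts per gene as deposited by the authors, in 1 table of 54532 Ensembl identifiers, every column of which was used. The submitters' processing notes name fastp, STAR and build mm10. The counter, its strand setting and its annotation are stated in none of the sources used here. GENCODE M21 on GRCm38 gave names to 54495 identifiers, and the 37 without one took up to 0.00642% of a library.

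The test was the quasi-likelihood F test of edgeR 4.0.16 in R 4.3.3, with TMM scaling, filterByExpr and 1 fit of group means to all 12 libraries. P-values were adjusted by the Benjamini-Hochberg method over 17473 genes and called below 0.05. The biological coefficient of variation was 17.4%. Intervals are 95% and use the test's own degrees of freedom. No 2 libraries of the same group were duplicates (chi-square per degree of freedom at least 4.48). Pairs from different groups were not checked. The fits were tested on simulated data. Alternatives used DESeq2 1.42.0, limma 3.58.1 and each library left out in turn. Copies were sought with blastn 2.17.0.

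Members and lists were chosen with earlier results of these data known. Named genes were all 9 members, up to 2 rising and 2 falling called genes per list with at least 1 CPM and no overlap between groups, in the CRE effect in WT and in CKO minus WT under CRE, and the 3 most like each member. The text describes a part of these.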

Additional observations from a re-analysis of the deposited data

How the results depend on the processing

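Over 846 member results under alternatives, 789 kept their direction and side of the threshold, 26 gained a call, 9 lost one and 22 changed sign, none of the last called in either fit. The count of members lower in CKO_CRE than in WT_CRE, 0 as reported, was 7 by limma-voom with library weights and ran from 0 to 7 with libraries left out. The count with a lower CRE response in CKO was 5 by limma-voom and ran from 0 to 5. The cause was not tested. Members higher with CRE numbered 6 in CKO with only the groups compared, against 8, where *Ctsd* was at an adjusted p of 0.0521 and *Ctsl* at 0.102.

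Sign changes, on the log2 scale, were these. By limma-voom the interaction of *Ctsc* was -0.096, the CKO minus WT difference of *Ctse* under CRE 0.088 and that of *Ctss* under PBS -0.040. That of *Ctss* under PBS was -0.001 with the replicate block and -0.161 with sex as a covariate. With libraries left out, the CKO minus WT difference under CRE ran from -0.520 to 0.061 for *Ctsd*, -0.451 to 0.226 for *Ctse*, -0.646 to 0.044 for *Ctsk* and -0.683 to 0.127 for *Ctss*. Under PBS it ran from -0.073 to 0.030 for *Ctsh*, -0.212 to 0.147 for *Ctsk* and -0.101 to 0.091 for *Ctss*. The interaction ran from -0.152 to 0.103 for *Ctsc*, -0.614 to 0.076 for *Ctsk* and -0.688 to 0.123 for *Ctss*.

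Libraries of equal replicate number showed weak correlations: 4 of 18 pairs were above 0.1, with a range from -0.033 to 0.176. Pairs of unequal number were not computed for reference, so these values cannot decide whether the numbers pair the samples. With the replicate block 9 members rose in WT and 8 in CKO, as without it.

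Counts of genes called in all moved more. CRE in CKO gave 6830, and 3812 with only the groups compared. CKO minus WT under CRE gave 160, against 838 by DESeq2, 7645 by limma-voom, 691 without the low-count filter, 29 with only the groups compared and 38 to 5112 with libraries left out. Under PBS it gave 19, against 114, 146, 89, 74 and 12 to 53 in that order. The interaction gave 8, against 128 by DESeq2, 4371 by limma-voom, 81 without the filter, 0 with the block, 2 with sex and 0 to 2660 with libraries left out.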
